A study of Mus musculus with 8 samples.

Results

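The genes described here encode hydrolases and membrane proteins of the lysosome, measured by RNA sequencing in mouse bone marrow-derived macrophages. They were taken from a list of 37 symbols of lysosomal enzymes, their helpers and membrane proteins, from which cathepsins and the proton pump were left out. A gene was kept where it reached 1 RPKM (tags per kilobase of exon, scaled to the tags of the library) in at least 2 libraries. All 37 passed, among 24940 genes in the deposited table and 11040 that met the same minimum. The macrophages came from C57BL/6 mice of 6 to 8 weeks and were grown in M-CSF (30 ng/ml), on which this lineage depends. They carried a short hairpin labelled TMBIM6sh, aimed at the endoplasmic reticulum protein TMBIM6, or one labelled NCsh, which the labels do not spell out. RANKL, the cytokine that drives macrophages towards osteoclasts, was either absent or present for 24 h (100 ng/ml). This makes 4 groups of 2 libraries each: TMBIM6sh with RANKL, TMBIM6sh without RANKL, NCsh with RANKL and NCsh without RANKL. The labels name 1 hairpin for each arm, and what it does beyond lowering Tmbim6 cannot be told apart from the loss of Tmbim6. The protocol text names RANKL for every sample, and the groups without it rest on the sample titles.

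Lysosomes are acidic compartments in which macromolecules taken up by phagocytosis or delivered by autophagy are broken down. Soluble hydrolases reach them through mannose phosphate receptors, and heavily glycosylated membrane proteins such as LAMP1 and LAMP2 line the inner face of their membrane. Many lysosomal genes carry an E-box in the promoter that the transcription factors TFEB and TFE3 bind, as the relative MITF does in osteoclasts. Macrophages are rich in lysosomes, and osteoclasts release lysosomal enzymes onto bone.

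Sequences around this E-box are shown because it is the promoter feature best known to link these genes. RefSeq promoter windows (GRCm38.p6, 250 bases before to 50 after each gene start) were found for 33 of the 37 members. The core CACGTG, which reads the same on both strands, stood in the windows of 9 of these 33 members (27.3%), against 8.09% of the 27025 genes with a RefSeq window. The longer GTCACGTG, searched on both strands and overlapping the core, stood in 8 members (24.2%) and in 2.55% of the genes with a window. These genes were not limited to those expressed here or matched to the members in base composition, so the shares are only description. The sites below are 30 bases each, 5′ to 3′ on the strand of the gene, with the core in capitals and its distance from the RefSeq start in the name. Naglu, Arsa, Glb1 and Gaa are shown because their levels differed between hairpins, and Lamp1, Sgsh and Mcoln1 as carriers that passed no test.
Naglu, chr11:101070009-101070038, plus strand, -73: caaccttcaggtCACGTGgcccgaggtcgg
Arsa, chr15:89477423-89477452, minus strand, -16: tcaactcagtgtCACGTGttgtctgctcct
Glb1, chr9:114401018-114401047, plus strand, -48: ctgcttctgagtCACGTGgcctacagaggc
Gaa, chr11:119267811-119267840, plus strand, -140: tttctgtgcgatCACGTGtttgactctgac
Lamp1, chr8:13159121-13159150, plus strand, -28: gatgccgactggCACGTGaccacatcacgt
Sgsh, chr11:119355522-119355551, minus strand, -29: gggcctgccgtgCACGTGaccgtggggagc
Mcoln1, chr8:3500462-3500491, plus strand, -45: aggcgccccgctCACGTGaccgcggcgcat

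The other carriers were Gla and Cln3, which held 2 cores each, as Mcoln1 did, while Lamp1 held 4. The window of Cln3 belongs to a RefSeq start inside the gene as the deposited table counts it, so its cores are not upstream of the counted gene. Laptm5, the member with the largest difference between hairpins, had no such core in the 250 bases before its RefSeq start, which are printed for that reason (chr4:130913066-130913315, plus strand, 61.2% G and C).
Laptm5: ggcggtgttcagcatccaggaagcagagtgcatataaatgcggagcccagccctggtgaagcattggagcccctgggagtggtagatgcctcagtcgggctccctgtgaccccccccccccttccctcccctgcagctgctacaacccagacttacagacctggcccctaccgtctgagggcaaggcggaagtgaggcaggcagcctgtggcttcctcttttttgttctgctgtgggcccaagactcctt

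Each library held 25475000 to 28595000 tags, recovered from the steps in which the RPKM values rise, of which 83.5% to 86.4% lay in gene exons. A member had at least 522 tags in every library, and counting error is part of the spread between libraries, more so for members of few tags such as Smpd1 and Arsa. Tmbim6 stood at 3.18% to 3.53% of the NCsh mean of the same RANKL state in the 4 TMBIM6sh libraries. All 7 macrophage markers listed were expressed, while the osteoclast genes Ctsk, Calcr, Oscar, Ocstamp and Itgb3 stayed under 1 RPKM in every library, and Acp5 stood at 50.9 to 64.7 RPKM and Dcstamp at 0.262 to 1.61 RPKM. The summed level of the macrophage markers, most of it Lyz2, was 6721 to 7293 RPKM in TMBIM6sh libraries with RANKL, 7725 to 7736 RPKM in TMBIM6sh libraries without RANKL, 8378 to 8450 RPKM in NCsh libraries with RANKL and 8504 to 9799 RPKM in NCsh libraries without RANKL. Markers of erythroid, mast and basophil cells were listed at 0, all lymphocyte and dendritic cell markers stayed under 1 RPKM, and stromal markers summed to at most 3.31 RPKM. Among 5 neutrophil markers only S100a8 passed 1 RPKM, with 11.3 to 15.4 RPKM in TMBIM6sh libraries and 22.3 to 27.7 RPKM in NCsh libraries, and Ly6g was at 0. The part of these shifts in the results below was not tested. In bulk RNA fewer cells of a type and less RNA per cell cannot be told apart. The labels do not say whether duplicates came from separate animals or cultures, so p-values measure only the spread between these libraries.

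The 37 genes spanned a wide range of levels, from Arsa at a mean of 8.94 RPKM over the 8 libraries to Psap at 2288 RPKM. Psap encodes prosaposin, the precursor of the saposins that help enzymes reach lipids. After it came Cd68, a lysosomal glycoprotein typical of macrophages (851 RPKM), Grn, which encodes progranulin (726 RPKM), Lamp1 (660 RPKM), Lipa, the lysosomal acid lipase (460 RPKM), and the tetraspanin Cd63 (433 RPKM). In all, 13 members averaged above 100 RPKM and 8 under 20 RPKM. The median member stood at 39.1 RPKM, against 9.29 RPKM for all genes tested, and only Smpd1 and Arsa lay under 9.29 RPKM. As a share of all tags in exons the members took 1.92% and 2.005% in TMBIM6sh libraries with RANKL, 2.02% and 2.07% in TMBIM6sh libraries without RANKL, 2.13% and 2.12% in NCsh libraries with RANKL, and 2.18% and 2.19% in NCsh libraries without RANKL. The 4 TMBIM6sh libraries thus lay below the 4 NCsh libraries in this share, but Psap alone makes the separation. Psap had 131937 to 147518 tags in TMBIM6sh libraries and 168141 to 191257 in NCsh libraries. With Psap left out the shares of the hairpins overlap, so a smaller share is not shown for the members as a group.

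**Figure D1:**
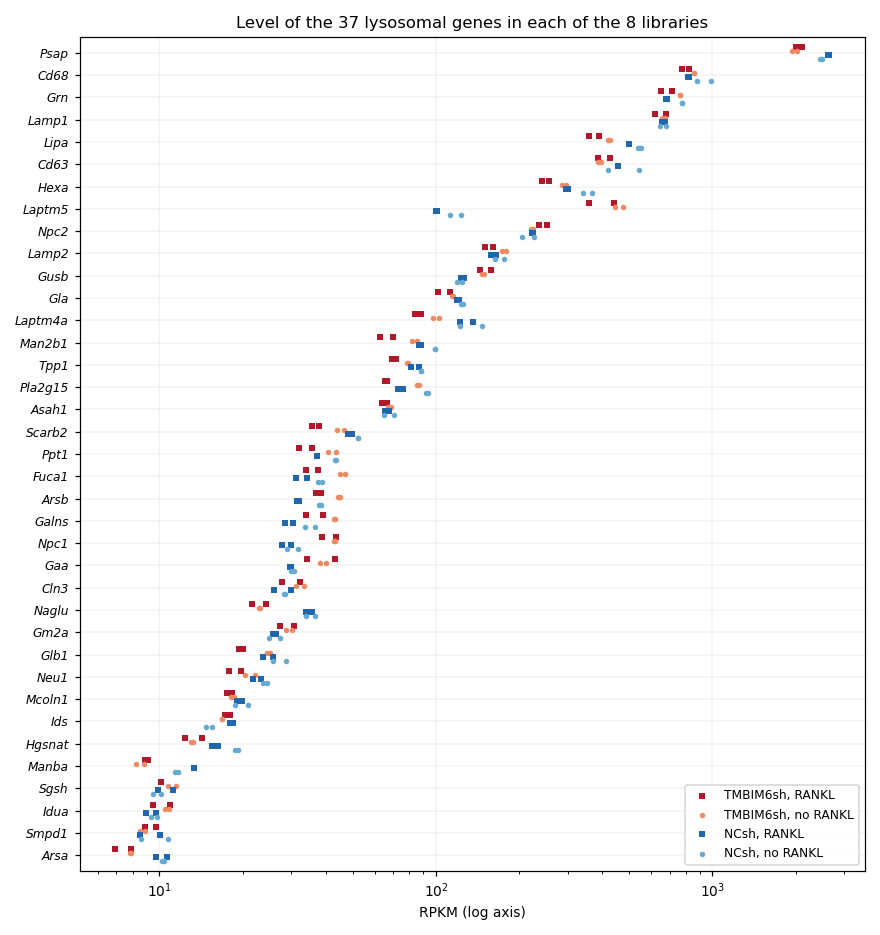
RPKM of each of the 37 lysosomal genes (rows, ordered by mean level) in each of the 8 libraries, on a log axis; red and orange marks are TMBIM6sh, dark and light blue marks NCsh, squares with RANKL and circles without. Laptm5 is the row in which the hairpins stand far apart, while most rows differ little beside the range from 8.94 RPKM (Arsa) to 2288 RPKM (Psap).

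The hairpins were compared first, with and without RANKL. With RANKL, 6 members were higher and 14 lower in TMBIM6sh than in NCsh libraries, which is 54.1% of members called at an adjusted p under 0.05, where 28.6% of all genes were called (8.93% higher, 19.7% lower). Without RANKL, 7 were higher and 10 lower, or 45.9% of members, where 24.2% of all genes were called (10.4% higher, 13.8% lower). The shares of all genes, here and below, are not matched to the members in level (medians of 9.29 and 39.1 RPKM). How far level alone moves the shares was not tested. Laptm5 was raised almost 4-fold, and every other called difference lay between a ratio of 0.655 and 1.43. Both comparisons called 16 members, always in the same direction, which is 80% of the 20 called with RANKL and 94.1% of the 17 called without. The same overlap was not counted over all genes, so it is not shown to be particular to these members. The comparisons have no library in common, but both set the same hairpins side by side and use 1 spread per gene from all 8 libraries. The median log2 difference of the members was -0.05 with RANKL and -0.10 without, beside -0.07 and -0.02 for all genes. Between the duplicates of TMBIM6sh with RANKL the median difference of the members was 0.12. With libraries scaled by median ratios, 9 members were higher and 11 lower with RANKL, and the median of the members with RANKL turned to 0.017. Over all genes, 986 were higher and 2171 lower with RANKL as deposited, and 1580 higher and 1680 lower after that scaling.

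**Figure D2:**
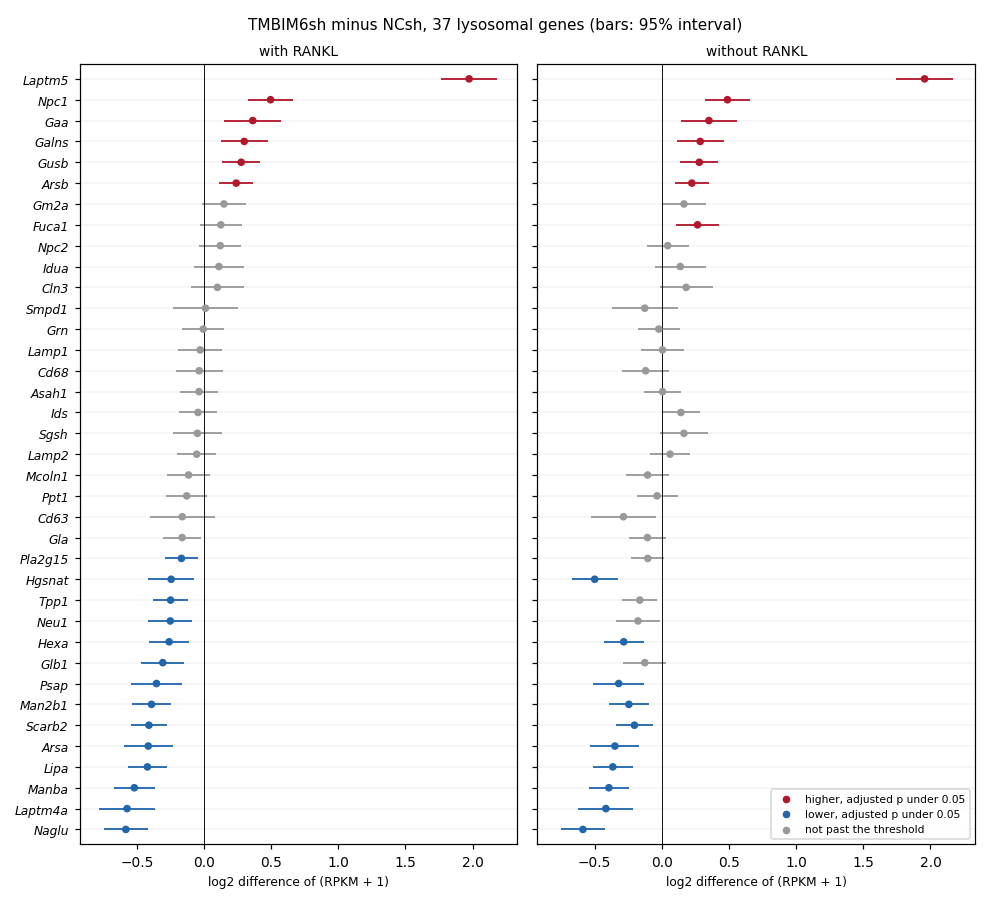
Log2 difference of RPKM + 1 between TMBIM6sh and NCsh libraries for the 37 genes, with RANKL (left) and without (right); points are fitted differences and bars their 95% intervals, red for higher, blue for lower and grey for not past the threshold. Laptm5 lies near 2 in both panels, and all other points lie between -0.6 and 0.5.

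Among membrane proteins, Laptm5 rose and its relative Laptm4a fell in TMBIM6sh libraries. Laptm5 (chromosome 4, 130913334 to 130936148, mm10) encodes a lysosomal protein of blood cells with several membrane spans, known in lymphocytes for sending receptors to degradation. It had 359 and 439 RPKM in TMBIM6sh libraries with RANKL, against 100.1 and 100.6 RPKM in NCsh libraries with RANKL. In the absence of RANKL it had 445 and 475 RPKM in TMBIM6sh libraries, against 124 and 112 RPKM in NCsh libraries. The lowest TMBIM6sh value was thus far above the highest NCsh value, with ratios of means of 3.98 with RANKL (log2 1.97, SE 0.0939, adjusted p = 3.16e-06) and 3.90 without (log2 1.96, adjusted p = 3.44e-06). RANKL itself left Laptm5 short of the threshold, with log2 values of -0.21 in TMBIM6sh libraries (adjusted p = 0.174) and -0.23 in NCsh libraries (adjusted p = 0.135).

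Laptm4a, a widely expressed protein of late endosomes and lysosomes on chromosome 12 at 8921307 to 8938741, had 88.7 and 84.2 RPKM in TMBIM6sh libraries with RANKL, against 136 and 122 RPKM in NCsh libraries with RANKL. The values without RANKL were 97.3 and 103 RPKM in TMBIM6sh libraries, against 122 and 147 RPKM in NCsh libraries. All 4 TMBIM6sh libraries lay below all 4 NCsh libraries (log2 -0.57, adjusted p = 0.00161 with RANKL, and -0.42, adjusted p = 0.00967 without). The NCsh libraries themselves spread widely for this gene. Its call without RANKL was lost when the first TMBIM6sh library of that state was left out (adjusted p = 0.0807) and with no filter on low values (adjusted p = 0.0516).

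Scarb2, the membrane receptor that carries glucocerebrosidase to lysosomes, fell in both states. It had 35.6 and 37.7 RPKM in TMBIM6sh libraries with RANKL, against 48.2 and 49.9 RPKM in NCsh libraries with RANKL (log2 -0.41, adjusted p = 0.00101). Without RANKL the values were 43.9 and 46.6 RPKM in TMBIM6sh libraries, against 52.4 and 52.1 RPKM in NCsh libraries (log2 -0.20, adjusted p = 0.0362). The weaker call without RANKL was lost without any single library of either hairpin in the groups without RANKL or of the NCsh group with RANKL. The other 5 membrane proteins, Lamp1, Lamp2, Cd63, Cd68 and the calcium-permeable channel gene Mcoln1, passed in no comparison. Lamp1 had 621 and 681 RPKM in TMBIM6sh libraries with RANKL, against 655 and 672 RPKM in NCsh libraries with RANKL, and the 95% interval of its log2 difference ran from -0.19 to 0.14. Cd63 came closest without RANKL, at 395 and 386 RPKM in TMBIM6sh libraries, against 420 and 541 RPKM in NCsh libraries (log2 -0.29, 95% interval -0.53 to -0.04, adjusted p = 0.0853), and the annotated pseudogene Cd63-ps could share its reads.

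Sterol and lipid handling was divided. Npc1, the membrane protein that exports cholesterol from lysosomes (chromosome 18, 12189694 to 12236386), rose in both states. It had 38.7 and 43.5 RPKM in TMBIM6sh libraries with RANKL, against 27.7 and 30.0 RPKM in NCsh libraries with RANKL. Libraries without RANKL gave 43.1 and 42.8 RPKM in TMBIM6sh libraries, against 31.7 and 29.1 RPKM in NCsh libraries. The hairpins did not overlap, with ratios of means of 1.43 with RANKL (log2 0.50, SE 0.0759, adjusted p = 0.00126) and 1.41 without (log2 0.49, adjusted p = 0.00158). Npc2, the soluble protein that hands cholesterol to NPC1, did not pass, with 235 and 252 RPKM in TMBIM6sh libraries with RANKL, against 223 and 225 RPKM in NCsh libraries with RANKL (log2 0.12, 95% interval -0.03 to 0.28).

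Lipa, the acid lipase that frees cholesterol from its esters (chromosome 19, 34492316 to 34527474), fell in both states. It had 357 and 388 RPKM in TMBIM6sh libraries with RANKL, against 498 and 499.5 RPKM in NCsh libraries with RANKL. Without RANKL it had 421 and 425 RPKM in TMBIM6sh libraries, against 539 and 551 RPKM in NCsh libraries. The log2 differences were -0.42 (adjusted p = 0.00146) and -0.37 (adjusted p = 0.00361), with all TMBIM6sh libraries below all NCsh libraries. Pla2g15, the lysosomal phospholipase, fell with RANKL by 0.17 on the log2 scale (adjusted p = 0.0457), a call that was lost after median-ratio scaling, with a replicate block and without any 1 of 6 libraries.

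Enzymes of glycosaminoglycan breakdown went both ways. Naglu, which removes N-acetylglucosamine from heparan sulfate (chromosome 11, 101070094 to 101077671), had 21.6 and 24.2 RPKM in TMBIM6sh libraries with RANKL, against 33.9 and 35.6 RPKM in NCsh libraries with RANKL. In the absence of RANKL it had 23.2 and 23.0 RPKM in TMBIM6sh libraries, against 33.8 and 36.7 RPKM in NCsh libraries. The lowest NCsh value was well above the highest TMBIM6sh value, with log2 differences of -0.58 (SE 0.0722, adjusted p = 4.16e-04) and -0.59 (adjusted p = 4.39e-04). Hgsnat, the membrane enzyme that acetylates heparan sulfate ends, had 13.1 and 13.2 RPKM in TMBIM6sh libraries without RANKL, against 18.8 and 19.2 RPKM in NCsh libraries without RANKL (log2 -0.50, adjusted p = 0.0014). With RANKL it had 12.4 and 14.2 RPKM in TMBIM6sh libraries, against 16.3 and 15.5 RPKM in NCsh libraries (log2 -0.24, adjusted p = 0.0382), a call lost under 8 of 16 alternatives, median-ratio scaling among them. Sgsh, the sulfamidase of heparan sulfate, Ids and Idua, which act on iduronate, passed in neither state.

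Gusb, Galns and Arsb were higher in TMBIM6sh libraries. Gusb, the glucuronidase, had 145 and 158 RPKM in TMBIM6sh libraries with RANKL, against 124 and 126 RPKM in NCsh libraries with RANKL (log2 0.28, adjusted p = 0.00923). The values without RANKL were 147 and 149 RPKM in TMBIM6sh libraries, against 119 and 125 RPKM in NCsh libraries (log2 0.28, adjusted p = 0.0106). Galns, a sulfatase of keratan sulfate, had 34.0 and 39.1 RPKM in TMBIM6sh libraries with RANKL, against 28.5 and 30.5 RPKM in NCsh libraries with RANKL (log2 0.30, adjusted p = 0.0183), and its log2 difference without RANKL was 0.29 (adjusted p = 0.0261). Arsb, a sulfatase of dermatan sulfate, had 37.01 and 38.3 RPKM in TMBIM6sh libraries with RANKL, against 32.0 and 31.5 RPKM in NCsh libraries with RANKL (log2 0.24, adjusted p = 0.0105), and 0.22 without RANKL (adjusted p = 0.0172). Tags were counted on both strands, and 48.2% of Arsb's exon bases overlap the antisense gene Gm26527 in GENCODE M21, so their reads cannot be told apart.

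Glycoprotein and glycogen enzymes were likewise divided. Manba, the beta-mannosidase (chromosome 3, 135485611 to 135571403), had 9.12 and 8.90 RPKM in TMBIM6sh libraries with RANKL, against 13.3 and 13.4 RPKM in NCsh libraries with RANKL. Libraries without RANKL gave 8.26 and 8.80 RPKM in TMBIM6sh libraries, against 11.7 and 11.4 RPKM in NCsh libraries. All TMBIM6sh libraries were lower (log2 -0.52, adjusted p = 5.22e-04 with RANKL, and -0.39, adjusted p = 0.00273 without). Man2b1, the alpha-mannosidase, had 62.9 and 70.2 RPKM in TMBIM6sh libraries with RANKL, against 88.2 and 86.5 RPKM in NCsh libraries with RANKL (log2 -0.39, adjusted p = 0.00203). Without RANKL it had 82.0 and 85.7 RPKM in TMBIM6sh libraries, against 99.7 and 99.4 RPKM in NCsh libraries (log2 -0.25, adjusted p = 0.0231).

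Gaa, the acid glucosidase of glycogen, was higher, with 34.3 and 43.2 RPKM in TMBIM6sh libraries with RANKL, against 29.8 and 29.6 RPKM in NCsh libraries with RANKL (log2 0.36, adjusted p = 0.0174). Its lower TMBIM6sh library stood close to the NCsh libraries, and the call was lost without the higher one, as it was without either NCsh library with RANKL. Without RANKL, Gaa had 38.1 and 40.0 RPKM in TMBIM6sh libraries, against 30.8 and 30.0 RPKM in NCsh libraries (log2 0.35, adjusted p = 0.0236). Fuca1, the fucosidase, passed only without RANKL, with 45.0 and 46.7 RPKM in TMBIM6sh libraries, against 37.3 and 38.7 RPKM in NCsh libraries (log2 0.27, adjusted p = 0.0222). With RANKL its log2 difference was 0.13 (95% interval -0.03 to 0.28), and the test of the difference between the states gave an adjusted p of 0.743.

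In the breakdown of glycosphingolipids 5 of 9 members were lower with RANKL, 3 of 9 without, and 0 higher, beside 19.7% and 13.8% of all genes called lower. Psap had 2011 and 2115 RPKM in TMBIM6sh libraries with RANKL, against 2648 and 2622 RPKM in NCsh libraries with RANKL (log2 -0.35, adjusted p = 0.0121). In the absence of RANKL it had 1932 and 2028 RPKM in TMBIM6sh libraries, against 2489 and 2456 RPKM in NCsh libraries (log2 -0.32, adjusted p = 0.022). The hairpins are well separated, yet both calls were lost with no filter on low values.

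Hexa, the alpha subunit of the hexosaminidase that degrades ganglioside GM2, fell in both states. It had 242 and 256 RPKM in TMBIM6sh libraries with RANKL, against 296 and 299.6 RPKM in NCsh libraries with RANKL (log2 -0.26, adjusted p = 0.0161). The values without RANKL were 286 and 294 RPKM in TMBIM6sh libraries, against 339 and 368 RPKM in NCsh libraries (log2 -0.28, adjusted p = 0.0126). Gm2a, the activator protein that presents this lipid to the enzyme, did not pass, with log2 values of 0.15 with RANKL (95% interval -0.02 to 0.32) and 0.16 without. Arsa, the sulfatase of sulfatides, had 7.88 and 6.93 RPKM in TMBIM6sh libraries with RANKL, against 10.7 and 9.73 RPKM in NCsh libraries with RANKL (log2 -0.41, adjusted p = 0.00466). Libraries without RANKL gave 7.87 and 7.85 RPKM in TMBIM6sh libraries, against 10.4 and 10.2 RPKM in NCsh libraries (log2 -0.35, adjusted p = 0.0126).

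Glb1, the galactosidase, had 20.2 and 19.5 RPKM in TMBIM6sh libraries with RANKL, against 25.7 and 23.8 RPKM in NCsh libraries with RANKL (log2 -0.31, adjusted p = 0.0107). Neu1, the sialidase that works in a complex with it, had 17.9 and 19.8 RPKM in TMBIM6sh libraries with RANKL, against 23.2 and 21.9 RPKM in NCsh libraries with RANKL (log2 -0.25, adjusted p = 0.0291). Both genes missed the threshold without RANKL (adjusted p = 0.234 and 0.109). Gla, the alpha-galactosidase, Smpd1, the acid sphingomyelinase, and Asah1, the acid ceramidase, passed in neither state. Of the genes named for neuronal ceroid lipofuscinosis, the peptidase Tpp1 was lower with RANKL, at 69.7 and 72.0 RPKM in TMBIM6sh libraries, against 81.6 and 87.1 RPKM in NCsh libraries (log2 -0.25, adjusted p = 0.0106). The thioesterase Ppt1, the membrane protein Cln3 and Grn did not pass.

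How firmly these calls stand differs by gene. Laptm5, Naglu, Npc1, Manba and Lipa were called in both RANKL states under every alternative run. So were Hgsnat without RANKL, and Scarb2, Laptm4a, Man2b1 and Arsa with RANKL. Leaving out any library of a hairpin comparison lowered the count of calls over all genes as well as over members. The count without RANKL dropped to 6 members when TMBIM6sh library 1 of that state was left out and to 7 when TMBIM6sh library 2 was, with the calls of Gusb, Hexa, Arsa, Arsb, Psap, Fuca1, Man2b1, Gaa, Galns and Scarb2 lost in either case (adjusted p = 0.0692 to 0.244 without library 1, 0.0703 to 0.141 without library 2). The count with RANKL dropped to 10 when NCsh library 1 of that state was left out and to 12 when NCsh library 2 was. Arsb, Psap, Hexa, Gaa, Neu1, Hgsnat and Pla2g15 were lost in either case, Gusb, Glb1 and Galns without library 1 and Tpp1 without library 2 (adjusted p = 0.0539 to 0.247 and 0.062 to 0.0949). Leaving out TMBIM6sh library 1 or 2 with RANKL left 14 and 15 members called. There Pla2g15 was lost in either case, Tpp1, Psap, Hexa, Neu1 and Hgsnat without library 1, and Gusb, Arsb, Glb1, Gaa and Galns without library 2 (adjusted p = 0.0548 to 0.216 and 0.056 to 0.121).

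**Figure D3:**
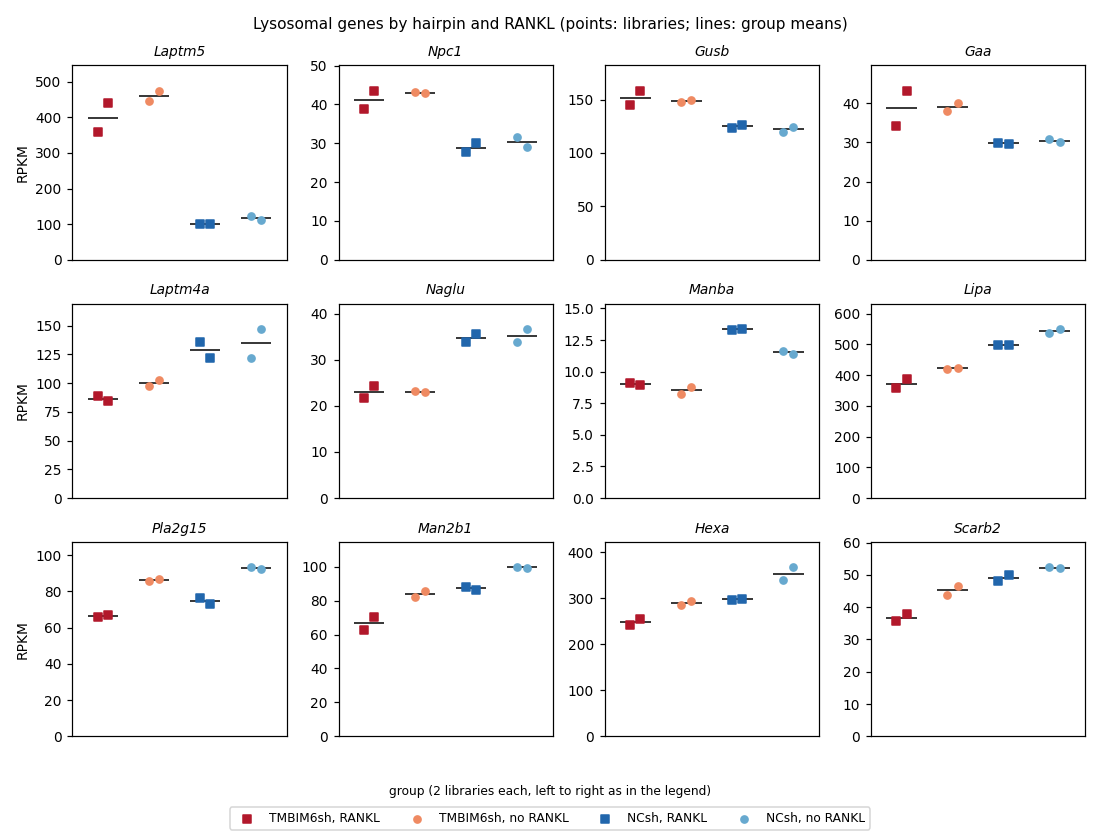
RPKM of 12 lysosomal genes in the 8 libraries; points are libraries, black lines group means, and groups run from TMBIM6sh with RANKL on the left to NCsh without RANKL on the right, with axes from 0. Laptm5, Npc1, Gusb and Gaa (top row) are higher in the TMBIM6sh groups, and the genes of the middle row are lower; in the bottom row RANKL groups also lie below their groups without RANKL.

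RANKL changed fewer of these genes than the hairpin did, and mostly lowered them. In TMBIM6sh libraries 0 members rose and 8 fell, or 21.6% of members, where 15.4% of all genes were called (8.53% higher, 6.89% lower). In NCsh libraries 1 rose and 3 fell, or 10.8%, where 15% of all genes were called (11% higher, 3.98% lower). Counted in either direction, neither share is far from that of all genes. By direction, 21.6% of members fell in TMBIM6sh libraries, beside 6.89% of all genes, and 0 rose, beside 8.53%. In NCsh libraries 3 of 37 members fell, beside 3.98% of all genes, and 1 rose, beside 11%. The median log2 value of the members was -0.10 in TMBIM6sh libraries and -0.07 in NCsh libraries, beside 0.02 and 0.06 for all genes, and 29 and 30 of the 37 members had a value below 0. Over the same members the duplicates of TMBIM6sh with RANKL differed by a median of 0.12 on this scale, and those of the other groups by 0.0081 to 0.032. After median-ratio scaling 0 members rose and 13 fell in TMBIM6sh libraries, and 0 rose and 12 fell in NCsh libraries, so these shares depend on the scaling. Over all genes in NCsh libraries 1214 rose and 439 fell as deposited, and 800 rose and 836 fell after that scaling. Of the 7 macrophage markers, 0 rose and 4 fell under RANKL with each hairpin, among them Csf1r, the receptor of M-CSF (log2 -0.69 in TMBIM6sh libraries and -0.51 in NCsh libraries), Fcgr1 (-0.89 and -1.02) and Mertk (-0.81 and -0.57). Lyz2, which makes up most of their sum, did not pass (adjusted p = 0.437 and 0.567), nor did Adgre1, with log2 values of 0.20 and 0.11. The part of these markers in the result was not tested.

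Pla2g15, a phospholipase with an acidic optimum on chromosome 8 at 106150354 to 106164718, fell with both hairpins. It had 65.7 and 66.7 RPKM in TMBIM6sh libraries with RANKL, against 85.6 and 86.9 RPKM in TMBIM6sh libraries without (log2 -0.38, SE 0.0547, adjusted p = 0.00149). In NCsh libraries it had 76.1 and 72.9 RPKM with RANKL, against 93.3 and 92.3 RPKM without (log2 -0.31, adjusted p = 0.00471). Its groups did not overlap within either hairpin, and the call in TMBIM6sh libraries held under every alternative, while that in NCsh libraries was lost without NCsh library 2 of the RANKL group (adjusted p = 0.0528).

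Arsb and Hexa fell with both hairpins too. Arsb had the 37.01 and 38.3 RPKM already given in TMBIM6sh libraries with RANKL, against 44.2 and 45.1 RPKM in TMBIM6sh libraries without (log2 -0.24, adjusted p = 0.017). In NCsh libraries the values were 32.0 and 31.5 RPKM with RANKL, against 38.4 and 37.8 RPKM without (log2 -0.26, adjusted p = 0.0142). RANKL thus lowered Arsb while the TMBIM6sh hairpin raised it, and the 2 directions leave NCsh libraries with RANKL lowest. For Hexa the log2 values were -0.22 in TMBIM6sh libraries (adjusted p = 0.0498) and -0.25 in NCsh libraries (adjusted p = 0.0345), and both calls were lost under 7 or more of 16 alternatives.

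A further 5 genes fell past the threshold only in TMBIM6sh libraries. Man2b1 had 62.9 and 70.2 RPKM with RANKL, against 82.0 and 85.7 RPKM without (log2 -0.33, adjusted p = 0.00769). Fuca1 had 34.0 and 37.5 RPKM with RANKL, against 45.0 and 46.7 RPKM without (log2 -0.35, adjusted p = 0.00826). Scarb2 had 35.6 and 37.7 RPKM with RANKL, against 43.9 and 46.6 RPKM without (log2 -0.30, adjusted p = 0.00954). In each of these genes both RANKL libraries lay below both libraries without it. Ppt1, which removes palmitate from proteins, had 32.0 and 35.8 RPKM with RANKL, against 43.7 and 40.8 RPKM without (log2 -0.31, adjusted p = 0.0134), and Glb1 a log2 value of -0.31 (adjusted p = 0.0164).

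In NCsh libraries the same 5 genes had log2 values of -0.19 (Man2b1), -0.21 (Fuca1), -0.09 (Scarb2), -0.22 (Ppt1) and -0.13 (Glb1), with adjusted p from 0.0611 to 0.362. Ids, the iduronate sulfatase, was the single member that rose, in NCsh libraries, with 18.02 and 18.5 RPKM with RANKL, against 15.6 and 14.8 RPKM without (log2 0.25, adjusted p = 0.0253). In TMBIM6sh libraries Ids had 17.3 and 18.04 RPKM with RANKL, against 16.8 and 16.8 RPKM without (log2 0.07, adjusted p = 0.541). The call on Ids was lost under 7 of 16 alternatives, median-ratio scaling among them (adjusted p = 0.085).

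The counts under RANKL rest on few libraries. Leaving out any library of either RANKL comparison also lowered the count of calls over all genes, so such losses are not particular to these members. In TMBIM6sh the count of 8 became 1 when the first RANKL library was left out (adjusted p of the calls lost 0.0524 to 0.199). It became 4 when the first library without RANKL was left out (0.0821 to 0.189) and 2 when the second one was (0.0805 to 0.277). In NCsh the count of 4 became 1 without the first RANKL library, 0 without the second and 2 without the second library of the other state. It also became 2 when either TMBIM6sh library without RANKL was left out and 7 when either TMBIM6sh library with RANKL was, though these enter only through the shared spread.

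**Figure D4:**
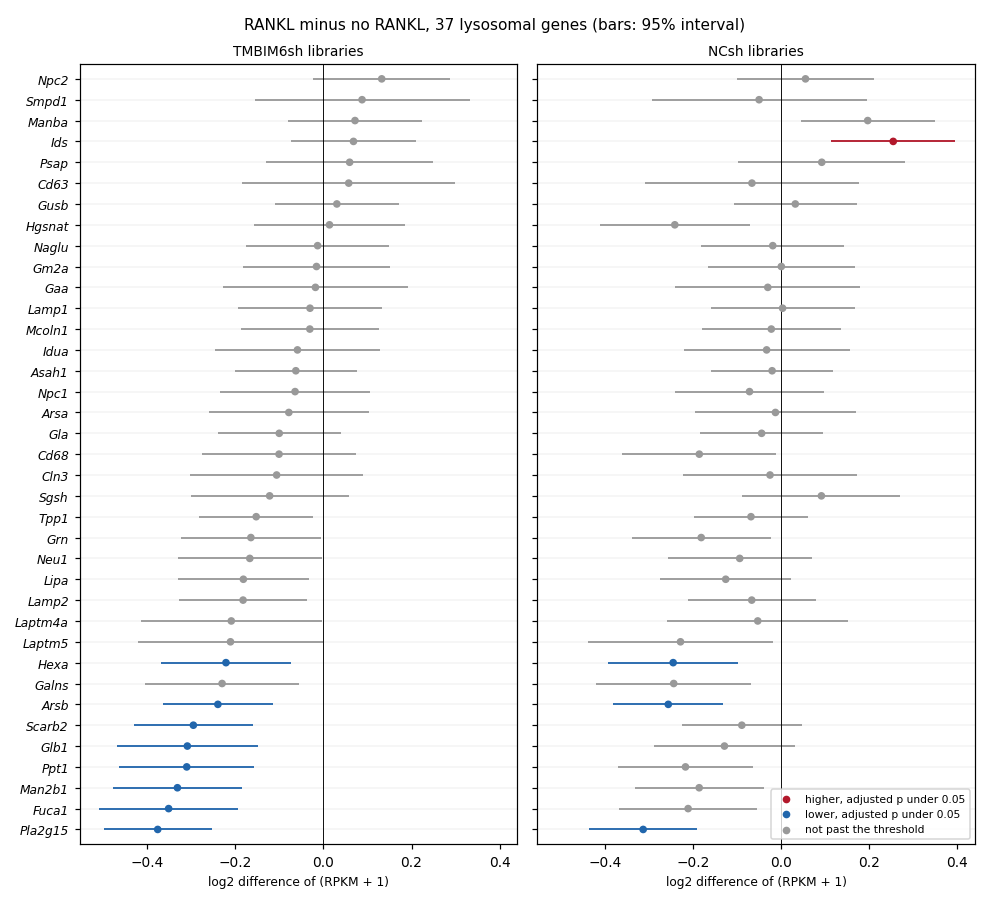
Log2 difference of RPKM + 1 between libraries with and without RANKL for the 37 genes, in TMBIM6sh (left) and NCsh libraries (right); points are fitted differences and bars 95% intervals, blue for lower, red for higher and grey for not past the threshold. Pla2g15 is lowest in both panels (-0.38 and -0.31), and Ids is the single red point, in NCsh libraries.

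The RANKL response itself was not shown to differ between the hairpins for any member. The interaction called 0 of 37 members at an adjusted p under 0.05 with limma, where 1 of 11040 genes (0.00906%) was called, and 0 members under every alternative, voom on the recovered tags included. At an unadjusted p under 0.05 there were 2 of 37, Hgsnat and Scarb2, and so few can arise among 37 tests with no difference. The share of all genes at that threshold was not counted. For Hgsnat the RANKL response in TMBIM6sh minus that in NCsh libraries was 0.26 on the log2 scale (95% interval 0.01 to 0.50, adjusted p = 0.633), and for Scarb2 it was -0.21 (95% interval -0.40 to -0.01, adjusted p = 0.633). These intervals leave room for differences of a size like that of the RANKL responses themselves, so the responses are not shown to be alike.

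Across the 4 comparisons 23 members were called at least once, 14 in a hairpin comparison only, 2 (Ids and Ppt1) in a RANKL comparison only and 7 in both kinds. The other 14 were Asah1, Cd63, Cd68, Cln3, Gla, Gm2a, Grn, Idua, Lamp1, Lamp2, Mcoln1, Npc2, Sgsh and Smpd1. Their log2 values ran from -0.29 to 0.18 without RANKL and from -0.16 to 0.15 with RANKL between hairpins, and from -0.19 to 0.13 under RANKL. The 95% intervals reached at most -0.53 and 0.38. Carriers of the E-box were found on all sides: of 9 members with CACGTG, 1 was higher, 3 lower and 5 not called between hairpins with RANKL, and of 24 with a window but without the core, 3 were higher, 10 lower and 11 not called. Exons of Cln3 and Sgsh overlap those of Apobr (13.2% of Cln3's exon bases) and Card14 (21.9% of Sgsh's), and those of Arsa the antisense gene C230037L18Rik (19.8%), so tags of these pairs cannot be separated.

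Other genes of the pathway were read from 5 lists outside these 37, with the same fit. Between hairpins, the shares of all genes called were 8.93% higher and 19.7% lower with RANKL and 10.4% higher and 13.8% lower without. Of 24 further hydrolases 4 were higher and 12 lower in TMBIM6sh libraries with RANKL, and 5 and 9 without RANKL. Plbd1, a phospholipase-B-like protein, had 6.64 and 5.99 RPKM in TMBIM6sh libraries with RANKL, against 15.5 and 15.7 RPKM in NCsh libraries with RANKL (log2 -1.18, adjusted p = 1.27e-05). Naaa, an acid amidase, had a log2 difference of -0.66 with RANKL (adjusted p = 2.35e-04) and -0.57 without. Under RANKL, 3 of these 24 hydrolases rose and 3 fell in TMBIM6sh libraries, and 3 rose and 1 fell in NCsh libraries, near the 15.4% and 15% of all genes called. Plbd2 and the acid phosphatase Acp2 rose under RANKL in TMBIM6sh libraries (log2 0.39 and 0.40) and in NCsh libraries (0.33 and 0.29).

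Of 28 further membrane proteins 3 were higher and 11 lower in TMBIM6sh libraries with RANKL, beside 8.93% and 19.7% of all genes, and 2 and 9 without RANKL, beside 10.4% and 13.8%. Tmem55b, a lysosomal phosphatase that also helps position lysosomes, had 36.2 and 35.3 RPKM in TMBIM6sh libraries without RANKL, against 20.1 and 22.6 RPKM in NCsh libraries without RANKL (log2 0.72, adjusted p = 1.11e-04). Laptm4b, the closest relative of Laptm4a, was lower by the same hairpin, with a log2 difference of -0.35 with RANKL (adjusted p = 0.0121) and -0.58 without (adjusted p = 0.00111). Slc36a1, an amino acid transporter, had -0.52 with RANKL. Under RANKL, 0 rose and 6 fell in TMBIM6sh libraries, and 1 rose (Mcoln2, log2 0.47) and 1 fell (Litaf, -0.37) in NCsh libraries. Of all genes 8.53% rose and 6.89% fell in TMBIM6sh libraries, and 11% rose and 3.98% fell in NCsh libraries.

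In the sorting of enzymes to lysosomes, 3 of 16 genes were higher and 3 lower in TMBIM6sh libraries in either RANKL state, beside 28.6% of all genes called with RANKL and 24.2% without. The lower ones included the retromer subunits Vps35, with 49.8 and 49.3 RPKM in TMBIM6sh libraries with RANKL, against 82.1 and 89.0 RPKM in NCsh libraries with RANKL (log2 -0.77, adjusted p = 2.85e-05), and Vps26a (log2 -0.80, adjusted p = 2.75e-05). Retromer returns sorting receptors from endosomes to the Golgi. Its subunit Vps29, named after its values were seen, did not pass between hairpins (log2 0.09, adjusted p = 0.442 with RANKL, and 0.08, adjusted p = 0.529 without). Under RANKL the sorting receptor Sort1 fell by 0.76 on the log2 scale in TMBIM6sh libraries and by 0.62 in NCsh libraries, and the adaptor Gga2 rose (log2 0.59 and 0.50), within counts of 3 higher and 2 lower of 16 with each hairpin. Of all genes 8.53% rose and 6.89% fell in TMBIM6sh libraries, and 11% and 3.98% in NCsh libraries.

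Of 18 transcription factors of lysosomal genes and their mTORC1 regulators, 1 was higher and 5 lower in TMBIM6sh libraries with RANKL, and 3 and 3 without, not far from the 28.6% and 24.2% of all genes called. Tfec, a relative of MITF in macrophages, had 2.55 and 2.54 RPKM in TMBIM6sh libraries with RANKL, against 6.72 and 5.26 RPKM in NCsh libraries with RANKL (log2 -0.97, adjusted p = 5.49e-04). Lamtor3, a scaffold of mTORC1 on lysosomes, was higher (log2 0.71, adjusted p = 8.40e-05 with RANKL, and 0.75 without). Tfeb, named here after its values were seen because it binds the E-box shown above, had 9.55 and 9.11 RPKM in TMBIM6sh libraries with RANKL, against 11.8 and 12.7 RPKM in NCsh libraries with RANKL (log2 -0.36, adjusted p = 0.00534). Tfeb was lower without RANKL too (log2 -0.28, adjusted p = 0.0194). Tfe3 and Mitf are given for the same reason. Between hairpins Tfe3 did not pass with RANKL (log2 0.08, adjusted p = 0.355) and was higher without (log2 0.22, adjusted p = 0.0332). Mitf was lower with RANKL, at 6.96 and 6.34 RPKM in TMBIM6sh libraries, against 10.7 and 7.86 RPKM in NCsh libraries (log2 -0.42, adjusted p = 0.0291). These NCsh libraries lay far apart, and without RANKL Mitf did not pass (log2 -0.21, adjusted p = 0.254). Under RANKL 0 of the 18 rose and 3 fell in TMBIM6sh libraries, among them Rraga (log2 -0.42) and Tfe3 (-0.28), beside 8.53% and 6.89% of all genes. In NCsh libraries 1 rose (Tfec, 0.79) and 2 fell, beside 11% and 3.98% of all genes.

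Of 14 genes of lysosome fusion and positioning 3 were higher and 2 lower in TMBIM6sh libraries with RANKL, where 28.6% of all genes were called, and 4 and 2 without, where 24.2% were. Vps33a, a subunit of the tethering complex for fusion, had a log2 difference of 0.53 with RANKL (adjusted p = 3.03e-04) and 0.37 without. Arl8b, a small GTPase that moves lysosomes outward, had -0.25 with RANKL (adjusted p = 0.0097), and Arl8a 0.33 without RANKL (adjusted p = 0.0111). Plekhm1, an adaptor for lysosome fusion needed in osteoclasts, was the gene of this list that fell under RANKL with both hairpins (log2 -0.37 in TMBIM6sh libraries and -0.34 in NCsh libraries). The interaction called 0 genes in each of these 5 lists.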

How the data were processed

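RNA of 8 libraries was measured as RPKM per gene. The authors made these RPKM values with HOMER's analyzeRepeats in mm10, per the file header. Exon tags of either strand were summed, isoforms were merged into a single row of the gene, and the sums were divided by exon length and library tags. The column heads say FPKM and the command says RPKM. The submitters' processing notes list HISAT2 and DESeq2 as well, with no version.

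Groups were taken from the sample titles. Whole tags were recovered from the RPKM steps, and of the 5044 to 5320 values that could be checked in a library 100% lay within 0.1 tags of a whole number. Tests used log2(RPKM + 1) of the 11040 genes with at least 1 RPKM in at least 2 libraries, which understates changes of low genes. limma 3.58.1 (R 4.3.3) was fitted with 4 group means, 1 spread per gene over all libraries and an intensity trend (4 residual and 5.545 prior degrees of freedom), adjusted by Benjamini-Hochberg over all genes tested, with a threshold of 0.05. A permutation test of 2 against 2 libraries cannot go below 0.333. The fit was tested on simulated data. Members are all described by role. From each other list up to 2 called genes per comparison, those with the smallest p, are named, and besides them Tfeb, Tfe3, Mitf and Vps29. A gene of these lists is counted but not reported here. Members and lists were chosen with earlier results of these data known, so no list was tested as a set. Counting intervals are not given; a count of 0 leaves room for 3 tags.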

Additional observations from a re-analysis of the deposited data

How the results depend on the processing

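The alternatives were pseudocounts of 0.1 and 5, no filter, a mean of at least 5 RPKM, median-ratio scaling, a fit of the 4 libraries compared, a replicate block, leaving out each library and, chosen after seeing the data, limma's voom on recovered tags. The planned edgeR and DESeq2 tests were not run, and voom is the only count-based fit given. Of 49 calls on single members 16 held throughout, 33 were lost at least once (17 of them only when 1 library was left out), and 0 reversed.

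Members called under RANKL in NCsh libraries numbered 4, but 12 after median-ratio scaling (median log2 -0.15), 12 with voom and 1 in the fit of 4 libraries. In TMBIM6sh libraries they numbered 8, but 13 after scaling and 14 with voom. Over all genes the calls in NCsh libraries numbered 1653, with 1636 after scaling, 2429 with voom and 1020 in the fit of 4 libraries. Those in TMBIM6sh libraries numbered 1703, with 1892 after scaling and 2235 with voom. The median between hairpins with RANKL turned to 0.017 after scaling. Libraries were divided by factors of 1.047 and 1.041 (NCsh with RANKL) and 0.974 and 1.013 (TMBIM6sh with RANKL). Why these factors differ was not tested.

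Without 1 library the counts ran from 1 to 9 (RANKL in TMBIM6sh), 0 to 7 (RANKL in NCsh), 10 to 20 (hairpins with RANKL) and 6 to 17 (hairpins without RANKL). The medians ran from -0.17 to -0.061, from -0.09 to -0.06, from -0.10 to -0.050 and from -0.10 to -0.040 in that order, and from -0.10 to 0.016 for the interaction. A lone library is then assumed to vary like the other groups.

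Deviations of same-numbered libraries correlated at -0.0651 to 0.0625 across genes, so no strong shared deviation was seen. Such values cannot tell whether same-numbered libraries came from the same animal, culture or day. With a replicate block 19 members were called between hairpins with RANKL, 17 without RANKL, 8 under RANKL in TMBIM6sh and 4 in NCsh libraries. Only Pla2g15 was lost.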
